A study of Danio rerio with 4 samples.

Results

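The transcripts described here are those most enriched on polysomes of wild-type zebrafish embryos. A gene was a member when it had at least 3 RPKM in both total mRNA libraries and its log2 ratio of polysomal to total mRNA in wild type, taken after adding 0.5 to each RPKM, was at least 2. Genes were left out by the start of the symbol where it is that of ribosomal proteins, nuclear respiratory chain subunits, crystallins, troponins, parvalbumins or myosins. Of 32313 genes in the files, 11054 reached 3 RPKM in both total libraries, 173 of these passed the threshold, 64 were left out by symbol and 109 remained. Of the 109 members, 68 have a symbol and 41 have none. The symbol filter could not act on genes without a symbol, so some of the 41 may belong to the families left out. It read only the start of a symbol, so some of the 64 may belong to none of these families. For the same reason, members known only by a clone name may belong to these families.

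The embryos (Danio rerio) were whole animals at about 24 hours after fertilization. They were wild type, or eif3ha morphants, injected with a morpholino against the mRNA of eIF3h, a subunit of an initiation factor complex. Libraries of polyA mRNA were read as short single reads. From each kind of embryo, mRNA of polysomal fractions was taken from 300 animals and total mRNA from 50. Each of the 4 groups is 1 library, so no difference below has a replicate check or a test and no control morpholino group appears among the labels. The depth, read from the steps between low RPKM values, ranged from 15769473 to 24939991 mapped reads. The EIF3H feature itself had 6.33 RPKM on wild-type and 7.6 RPKM on morphant polysomes, with total levels of 6.24 and 5.92 RPKM. An mRNA level does not show whether a morpholino blocks translation. Of 26 marker genes for tissues of the embryo, 19 symbols were found, and 15 of them reached 3 RPKM in both total libraries; gata1a, COL9A1, MIP and LIM2 did not.

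An mRNA that is being translated carries several ribosomes at a time and sediments as a polysome, while an mRNA held in free particles stays in lighter fractions. The ratio of polysomal to total mRNA is therefore used as a measure of how far a transcript is engaged in translation. Short reading frames have room for few ribosomes. Loading of ribosomes depends on initiation, where eIF3 acts, and some mRNAs are more sensitive than others to the state of the initiation factors. In a whole embryo the ratio mixes all tissues, and fewer cells of a type and less RNA per cell cannot be told apart.

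In wild type the members ranged from 15.1 to 34064 RPKM in polysomal mRNA, with a median of 125, and from 3.0 to 4739 RPKM in total mRNA, with a median of 27.9. They made up 18.9% of the summed RPKM of the wild-type polysomal library and 15.9% of the morphant polysomal library, against 6.03% and 6.11% of the wild-type and morphant total libraries. The single highest member, a feature of 71 bases without a symbol (ENSDARG00000081369, singled out after its value was seen), held 4.34% of the summed RPKM of wild-type polysomal mRNA. Both polysomal values lay above both total values for 106 of the 109 members. The share of all genes with this order was not computed. Morphant polysomal above morphant total mRNA, which is part of it, held for 26.6% of all genes. The rule fixes the order within wild type, where its threshold was passed by 1.57% of all genes with 3 RPKM in both total libraries. Just inside the threshold stood si:ch1073-314i13.4 at a log2 ratio of 2.01 and SMIM18 at 2.0, and just outside it 2 features named FABP7, ENSDARG00000034650 at 1.99 and ENSDARG00000007697 at 1.97.

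The library the rule did not use is morphant polysomal mRNA, and there the members were again on the high side. Their log2 ratio of morphant polysomal to morphant total mRNA had a median of 1.71 and ranged from -0.23 to 3.94, while the median over all 11054 genes was -0.72. At least 2-fold enrichment in morphants was found for 95 of the 109 members (87.2%), against 6.27% of all genes. At least 4-fold enrichment was found for 20 members (18.3%), against 0.715% of all genes. Polysomal mRNA stood above total mRNA in morphants for 108 members (26.6% of all genes). None of the members lay below the median of all genes, and 86 of them (78.9%) stood among the top 5% of genes in morphants. The morphant total library had set only the floor of the rule. Among members with recovered reads, 72 of 96 had a 95% counting interval for the morphant ratio that lay wholly above 2-fold. The share of all genes with such an interval was not computed, so this count only describes the members.

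**Figure D1:**
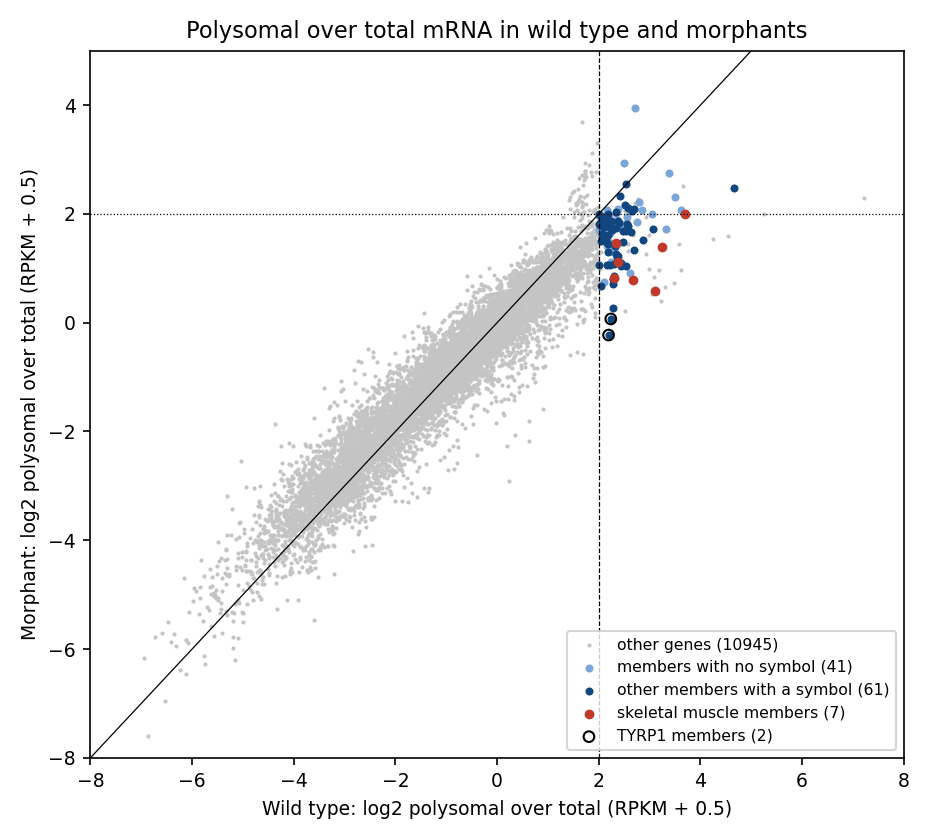
Log2 ratio of polysomal to total mRNA in wild type (x axis) and in morphants (y axis) for the 11054 genes with at least 3 RPKM in both total libraries, 1 point per gene; members are blue (light where they have no symbol), muscle members red, TYRP1 ringed and other genes grey. The dashed line is the threshold of the rule at 2, the dotted line marks the same value in morphants and the solid line is equality; the 109 members sit above most genes in morphants, and 20 of them reach the dotted line.

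Set against wild type, the members stood lower on morphant polysomes. Polysome association, the morphant log2 ratio of polysomal to total mRNA minus the wild-type one, had a median of -0.71 over the members and 0.04 over all genes. It was below 0 for 106 of the 109 members (45.1% of all genes), and at least 2-fold lower for 35 members (32.1%, against 2.38% of all genes) and at least 2-fold higher for 1, a feature of 155 bases without a symbol (2.64% of all genes). Because members were chosen for a high wild-type ratio, part of this direction is fixed by the choice, and the counts are a description. The same rule applied to the morphant libraries selected 68 genes, whose median ratio was 2.24 in morphants and 1.74 in wild type, with a median association of 0.57. These are mostly other kinds of features, so their values do not measure how much of the members' difference comes from the choice. Of these 68 genes, 10 were at least 2-fold higher in association and 3 at least 2-fold lower.

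The set chosen on the morphant libraries shared 20 genes with the members, which is 18.3% of the members and 29.4% of the other set. Of its 68 genes, 57 have no symbol and 51 have a gene model under 200 bases, among them several of 154 to 156 bases with nearly equal values, 1 of which carries the symbol 5_8S_rRNA. That feature (ENSDARG00000081218) had 304 RPKM on wild-type and 531 on morphant polysomes, beside 77.9 and 53.1 RPKM in the total libraries. Among the 109 members only 12 are under 200 bases. With features under 200 bases left out, an alternative chosen after seeing the data, the rule selects 97 genes on the wild-type and 17 on the morphant libraries. Features that resemble each other in sequence may share reads, so their single values are uncertain.

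Short gene models were common among the members. The gene model length could be recovered for 96 members, with a median of 692 bases (range 69 to 9981), and for 10498 of all genes, with a median of 2563 bases. Models under 1000 bases made up 65.6% of the members with a length (63 genes) and 16.0% of all genes with one (1681 genes). Members were 5.71% of genes from 150 up to 500 bases, 2.84% from 500 up to 1000, 0.818% from 1000 up to 2000 and 0.19% from 2000 up to 4000. Short genes as a whole did not lie on 1 side of the median wild-type log2 ratio of all genes, -0.76. The median was -1.30 over the 420 genes from 150 up to 500 bases and -0.51 over the 1055 genes from 500 up to 1000. It was -0.41 over the 2446 genes from 1000 up to 2000 bases and -1.03 from 4000 bases up. The 556 genes without a recovered length, 13 of them members, had a median of 0.11. The 37 genes left out by symbol that have a length had a median of 891 bases.

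**Figure D2:**
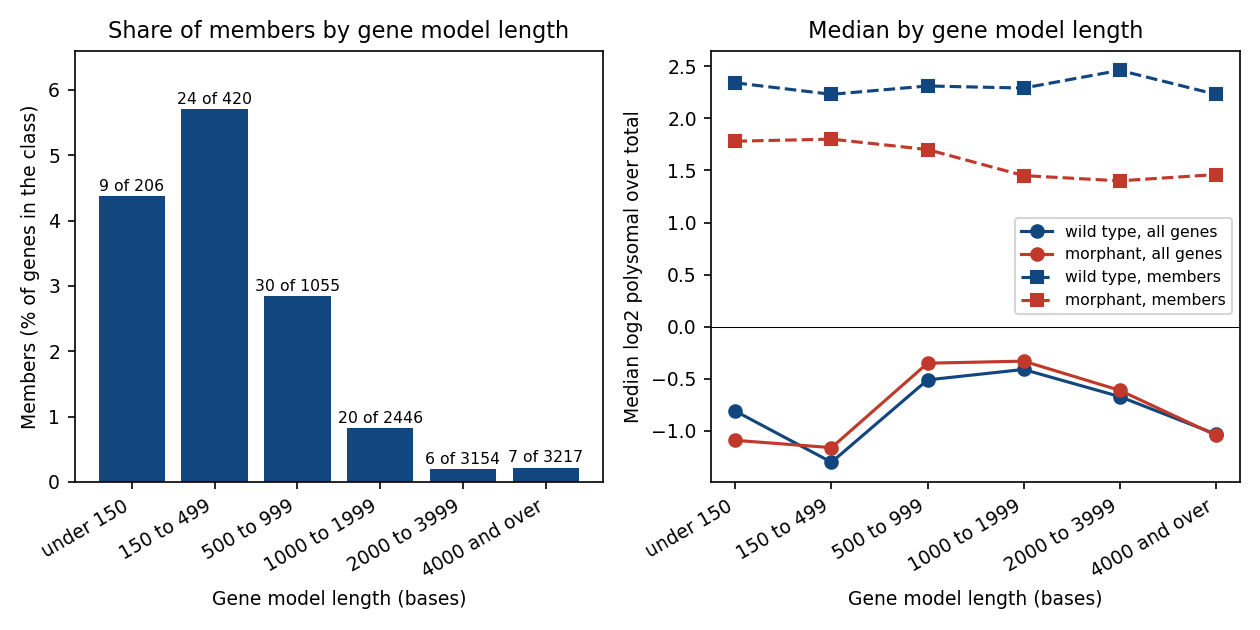
Left, members as a percentage of all genes in each class of gene model length, with the counts above the bars. Right, the median log2 ratio of polysomal to total mRNA in each class for all genes (solid lines) and for members (dashed lines), in wild type (blue) and morphants (red). Members take a larger share of the classes under 1000 bases, while the medians of all genes are below 0 in every class.

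The members were grouped by the known role of their protein, after their values had been seen. For each gene below, the wild-type value comes before the morphant one. Of the members known from skeletal muscle, most stood lower on morphant than on wild-type polysomes relative to their total mRNA. The 7 genes had a median wild-type log2 ratio of 2.68 and a median morphant ratio of 1.12. Their median association was -1.69, and 6 of the 7 were at least 2-fold lower (2.38% of all genes were), a count that describes genes grouped with their values known. The wider list of other skeletal muscle genes, taken by the start of the symbol, held 49 genes with a median association of -0.24, of which 10 were at least 2-fold lower and 1 at least 2-fold higher. It shares cav3, ENO3 and PGAM2 with the 7 genes and holds a further member, klhl43 (ENSDARG00000053803). That gene had 606 and 486 RPKM in polysomal and 127 and 133 RPKM in total mRNA and an association of -0.38. In the 7 genes grouped by role, total mRNA was higher in morphants in every case, by 0.12 to 0.67 on the log2 scale. Polysomal mRNA of these 7 genes was lower in every case, by -0.37 to -1.86. Of all 109 members, 63 were higher in morphant total mRNA and 98 lower in morphant polysomal mRNA. Both directions are in part fixed by the choice of members, so they do not set the muscle genes apart.

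Among them, cavin4a (ENSDARG00000038658), a coat protein of muscle caveolae, had the lowest association of all members, -2.52 (95% counting interval on reads -2.86 to -2.37). It had 46.3 RPKM on wild-type and 12.4 on morphant polysomes, beside 4.97 and 8.13 RPKM in the total libraries. The wild-type polysomal value lies apart from the other 3, and cavin4a ranked 21 of all genes in wild type and 1416 in morphants. Its partner cav3 (ENSDARG00000024141), the caveolin of muscle, differed less, with 287 and 223 RPKM in wild-type and morphant polysomes, 56.5 and 80.5 RPKM in total mRNA, and an association of -0.88.

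The muscle methyltransferase SMYD1 (ENSDARG00000009280), needed for the assembly of sarcomeres, had 60.5 and 19.9 RPKM on polysomes and 5.94 and 7.31 RPKM in total mRNA, an association of -1.86. The muscle form of enolase, ENO3 (ENSDARG00000039007), stood at 57.2 and 19.8 RPKM in polysomal and 8.52 and 11.3 RPKM in total mRNA, an association of -1.89. For both genes the morphant polysomal library was still above both total libraries. The other glycolytic enzyme of muscle, PGAM2 (ENSDARG00000057571), had 158 and 71.1 RPKM in polysomal and 29.8 and 32.5 RPKM in total mRNA, an association of -1.27. The adenylate kinase AK1 (ENSDARG00000001950), which balances adenine nucleotides and is abundant in muscle, was the next most enriched member with a symbol after FABP1. Its polysomal level was 1151 RPKM in wild type and 564 in morphants, beside total levels of 88.8 and 141 RPKM and a log2 ratio of 3.69 in wild type against 2.0 in morphants. DHRS7C (ENSDARG00000071877), a dehydrogenase of the sarcoplasmic reticulum, stood at 20.9 and 10.6 RPKM in polysomal and 3.88 and 5.75 RPKM in total mRNA. These genes share their tissue with the myosins, troponins and parvalbumins that the rule left out. Without the 7 muscle genes, an alternative chosen after seeing the data, 29 of 102 members were at least 2-fold lower in association, with a median of -0.62.

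The melanin gene TYRP1 is present as 2 features, and in morphants they had the lowest ratios of polysomal to total mRNA of all members. ENSDARG00000056151 had 54.8 RPKM on wild-type and 12.6 on morphant polysomes, beside 11.2 and 12 RPKM in the total libraries. ENSDARG00000029204 stood at 32.7 and 6.91 RPKM in polysomal and at 6.76 and 8.17 RPKM in total mRNA. For both features, wild-type polysomal mRNA stood apart from 3 libraries of similar level. Their morphant log2 ratios were 0.07 and -0.23, with counting intervals on reads of -0.10 to 0.25 and -0.47 to -0.02, and the second was the only member below 0. The 2 features share a symbol, and reads may have been split between them.

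The most enriched member was FABP1 (ENSDARG00000019357), a fatty acid binding protein of liver and gut. It had 116 RPKM on wild-type and 27.1 on morphant polysomes, beside total levels of 4.11 and 4.47 RPKM. Its log2 ratio was 4.65 in wild type, rank 3 of all genes, and 2.47 in morphants, rank 23, and its association was -2.18 (interval on reads -2.78 to -1.65). CRABP1 (ENSDARG00000035904), a carrier of retinoic acid, stood at 51.4 and 25.6 RPKM in polysomal and 10.2 and 14.4 RPKM in total mRNA, an association of -1.47. The 2 alpha-tubulins TUBA1A (ENSDARG00000001889) and tuba1c (ENSDARG00000055216), both microtubule subunits abundant in neurons, had associations of -1.16 and -1.21. TUBA1A had 408 and 169 RPKM in polysomal and 78.6 and 73.0 RPKM in total mRNA, and tuba1c 198 and 69.3 RPKM in polysomal and 40.0 and 32.5 RPKM in total mRNA. In both genes only the polysomal libraries were far apart. Alpha-tubulin genes resemble each other, and reads may have been split between copies.

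**Figure D3:**
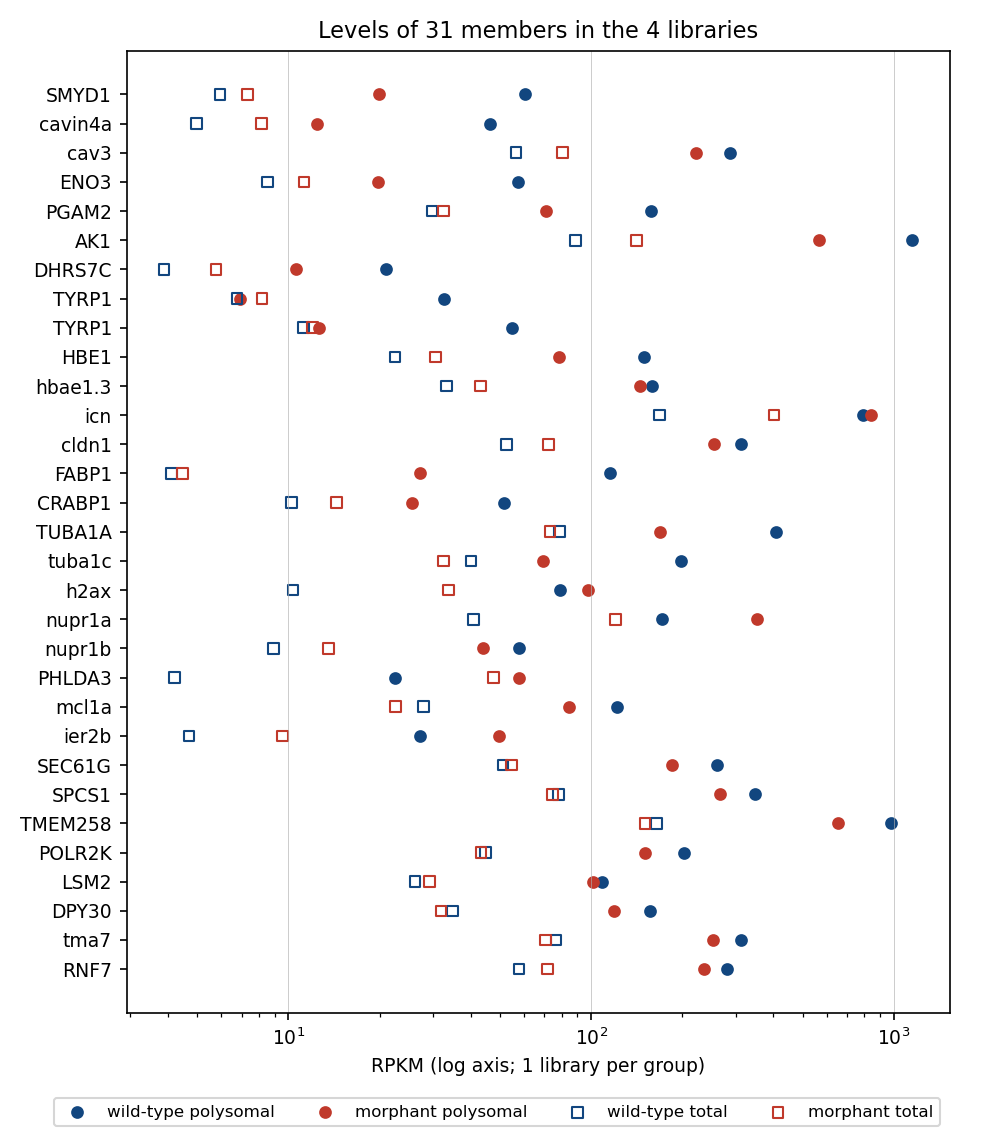
RPKM of 31 members in the 4 libraries, on a log axis; filled circles are polysomal and open squares total mRNA, blue is wild type and red morphant. The muscle genes cavin4a, SMYD1 and ENO3, both TYRP1 features and FABP1 show a wide gap between wild-type and morphant polysomal mRNA, while LSM2, hbae1.3 and icn have nearly equal polysomal values.

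A second kind of member, also drawn up with values known, encodes proteins of general cell functions. Most of those named had an association nearer to 0 than the median of all members, -0.71. Members outside this kind overlap it, with -0.50 for hbae1.3 and -1.44 for MAP2K1. Its role groups had median wild-type ratios of 2.13 to 2.34, below the 2.68 of the muscle genes, and that ratio enters association. In the secretory pathway such members were SEC61G, a small subunit of the channel into the endoplasmic reticulum, SPCS1 of the signal peptidase and TMEM258 of the oligosaccharyltransferase that attaches sugar chains. TMEM258 (ENSDARG00000078785) had 983 RPKM on wild-type and 653 on morphant polysomes and 165 and 151 RPKM in total mRNA. SEC61G (ENSDARG00000018637) stood at 261 and 185 RPKM in polysomal and 51.1 and 54.6 RPKM in total mRNA. The 3 genes had morphant log2 ratios of 1.75 to 2.11 and associations of -0.60 to -0.31.

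In the nucleus these were POLR2K, a zinc-binding subunit shared by the RNA polymerases, LSM2 of the ring that binds the U6 RNA of the spliceosome, DPY30 of histone H3 methyltransferase complexes, and CENPX, a histone-fold protein of the centromere. The fifth nuclear member, h2ax, had an association of -1.35 and is described with the stress genes. POLR2K (ENSDARG00000075616) stood at 203 and 151 RPKM in polysomal and 44.8 and 43.3 RPKM in total mRNA, and LSM2 (ENSDARG00000070867) at 109 and 102 RPKM in polysomal and 26.1 and 29.2 RPKM in total mRNA. The associations of POLR2K and LSM2 were -0.38 and -0.26, against -0.27 for DPY30 and -0.31 for CENPX. In POLR2K, LSM2, DPY30 and CENPX, both polysomal values lay above both total values, as in 106 of the 109 members.

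In protein turnover these were RNF7, the RING subunit of cullin ubiquitin ligases, and COPS9 of the COP9 signalosome, with associations of -0.56 and -0.34. In translation they were tma7 (ENSDARG00000071670), a ribosome-associated protein known from yeast, at 312 and 252 RPKM in polysomal and 76.5 and 70.6 RPKM in total mRNA (association -0.19), and AIMP1 (ENSDARG00000036894), a scaffold of the multi-synthetase complex, at 37.0 and 16.0 against 7.93 and 7.44 RPKM (association -1.10). Among proteins of mitochondria made from nuclear genes, malsu1 of the mitochondrial ribosome, coa5 of cytochrome oxidase assembly and DNAJC19 of the import motor had associations of -0.50, -0.43 and -0.64. GATC, part of the enzyme that makes glutaminyl-tRNA in mitochondria, had -1.14, with 70.0 and 50.6 RPKM in polysomal and 13.1 and 21.2 RPKM in total mRNA. The immunophilin fkbp1aa (ENSDARG00000022684) stood at 692 and 587 RPKM in polysomal and 153 and 146 RPKM in total mRNA, with a log2 ratio of 2.17 in wild type and 2.01 in morphants.

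Among the members were also 2 transcripts of the mitochondrial genome. Such transcripts are read by ribosomes inside mitochondria and not by the cytosolic ribosomes that form the polysomes measured here. MT-CO3 (ENSDARG00000063912), a subunit of cytochrome oxidase, had 21694 RPKM on wild-type and 13666 on morphant polysomes, beside 3355 and 3206 RPKM in total mRNA. MT-CYB (ENSDARG00000063924), cytochrome b, stood at 6012 and 4917 RPKM in polysomal and 1488 and 1398 RPKM in total mRNA. Their wild-type log2 ratios were 2.69 and 2.01 and their morphant ratios 2.09 and 1.81. A high ratio of polysomal to total RPKM was thus also measured for these 2 mRNAs, which lie outside the cytosol. A further 9 members, all without a symbol, have gene models under 150 bases, and their values are those of features shorter than most mRNAs.

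Among genes of stress and cell death, several stood higher in morphant total mRNA, as did 63 of all 109 members. PHLDA3 (ENSDARG00000037804), a repressor of Akt that is a target of p53, had 22.5 RPKM on wild-type and 57.8 on morphant polysomes, beside 4.21 and 47.7 RPKM in total mRNA. The log2 differences were 1.34 in polysomal and 3.36 in total mRNA, so its association was -2.01 although its polysomal level was higher in morphants. The stress-induced nuclear proteins nupr1a (ENSDARG00000094300) and nupr1b (ENSDARG00000094557) had associations of -0.50 and -0.97. For nupr1a, polysomal mRNA stood at 172 and 355 RPKM and total mRNA at 40.8 and 120 RPKM, higher in morphants in both fractions. The histone variant gene h2ax (ENSDARG00000029406), whose protein marks DNA breaks, stood at 78.9 and 97.7 RPKM in polysomal and 10.4 and 33.8 RPKM in total mRNA, an association of -1.35. The survival gene mcl1a, a relative of Bcl-2, and the immediate early gene ier2b had associations of -0.23 and -0.09. Total mRNA of mcl1a was lower in morphants, at 27.9 and 22.5 RPKM, and that of ier2b higher, at 4.69 and 9.55 RPKM. Small heat shock protein hspb9 (ENSDARG00000078674) was lower in both fractions, with 75.9 and 17.8 RPKM in polysomal and 13.7 and 8.44 RPKM in total mRNA.

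In the skin and blood, icn (ENSDARG00000009978), a calcium-binding protein of the epidermis, stood at 792 and 838 RPKM in polysomal mRNA. Its total mRNA stood at 169 and 402 RPKM, which gave an association of -1.17. The tight junction gene cldn1 (ENSDARG00000040045) stood at 313 and 255 RPKM in polysomal and 52.5 and 72.4 RPKM in total mRNA, an association of -0.75. The globins HBE1 (ENSDARG00000087390) and hbae1.3 (ENSDARG00000089124) had associations of -1.36 and -0.50, with hbae1.3 at 158 and 145 RPKM in polysomal and 33.3 and 43.1 RPKM in total mRNA. The 7 globins with 3 RPKM in both total libraries had a median association of 0.29, with 1 gene at least 2-fold lower and 1 at least 2-fold higher, so the 2 members do not stand for the list. Globin genes are near copies of each other, so the split between them is uncertain.

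**Figure D4:**
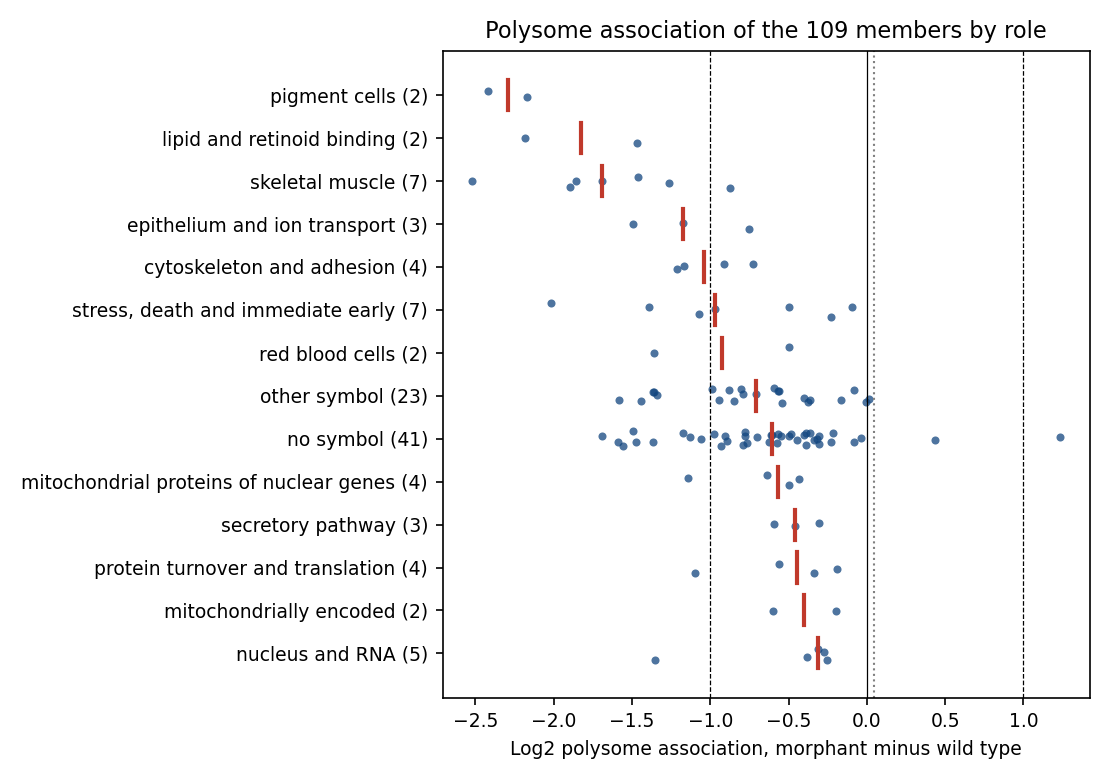
Log2 polysome association (morphant minus wild type) of the 109 members, 1 point per gene, in groups by the role of the protein; red bars are group medians, dashed lines mark 2-fold, and the dotted line is the median of all genes. The muscle median is -1.69 and that of nuclear and RNA proteins is -0.31; the medians of all groups lie to the left of the dotted line.

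The 35 members at least 2-fold lower in association came from both fractions. Polysomal mRNA was at least 2-fold lower in 20 of them, total mRNA at least 2-fold higher in 4, and neither in 11. Over all members, polysomal mRNA was at least 2-fold lower in morphants for 25 (22.9%, against 2.01% of all genes) and at least 2-fold higher for 4 (3.67%, against 1.68%), of which PHLDA3 and nupr1a have a symbol. Total mRNA differed less: 5 members were at least 2-fold higher (4.59%, against 0.742% of all genes), namely PHLDA3, h2ax, nupr1a, icn and a gene with no symbol. It was at least 2-fold lower for 2 (1.83%, against 0.362%), si:ch73-21g5.7 and a gene with no symbol. The median total difference over the members was 0.05. Because wild-type polysomal and wild-type total values chose the members, lower polysomal and higher total values in morphants are in part fixed by the choice. These counts are a description. At the other end, TCIM (ENSDARG00000079497), a regulator of Wnt signalling, had the highest morphant ratio of members with a symbol, 2.55 against 2.54 in wild type, with 26.6 and 39.4 RPKM in polysomal and 4.17 and 6.32 RPKM in total mRNA. Among members with a symbol, the next in association were si:ch1073-314i13.4 at -0.01 and tmem14a at -0.08.

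Further members named by their rank have roles of their own. The protein phosphatase inhibitor ppp1r17 (ENSDARG00000093677) had 46.2 and 28.6 RPKM in polysomal and 6.93 and 6.47 RPKM in total mRNA. Its morphant log2 ratio was 2.06. The kinase MAP2K1 (ENSDARG00000007825), which activates ERK, had 57.7 and 33.3 RPKM in polysomal and 11.2 and 18 RPKM in total mRNA, an association of -1.44. The sodium pump regulator fxyd2 (ENSDARG00000094561) had 25.9 and 14.7 against 4.04 and 6.84 RPKM, an association of -1.49. In these 2 genes polysomal mRNA was lower and total mRNA higher in morphants. For genes known only by a clone name no role is given, and their values ranged widely. Among them, si:dkey-151g10.6 had 25064 and 18038 RPKM in polysomal mRNA and a morphant log2 ratio of 2.16, si:dkey-162b3.5 had 2127 and 1104 RPKM and 1.72, si:ch211-158m24.12 had 651 and 268 RPKM and 0.67, and si:dkey-181m9.5 had 17.8 and 8.2 RPKM and 0.70.

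Members were 0.986% of all genes with 3 RPKM in both total libraries, so most lists of genes by function are too short for a count of 0 or 1 member to differ from that share. Of the 49 genes on the list of other skeletal muscle with 3 RPKM in both total libraries, 4 were members, of 19 glycolytic genes 2 and of 7 globins 2. Of 106 genes of the spliceosome and RNA binding 1 was a member, and of 88 chaperones 4, among them HSPA12B (ENSDARG00000030307) of the HSP70 family with an association of -0.71. Translation factors (65 genes), the proteasome (43), ubiquitin and its relatives (45) and redox enzymes (38) held none, although 17 of the redox enzymes were at least 2-fold enriched on wild-type polysomes (8.67% of all genes were). Secretion (38 genes) and neuronal genes (36) held 2 members each. Mitochondrial import (74), histones (10), p53 and arrest (26), calcium binding (13) and RNA polymerase (24) held 1 each. The V-ATPase (20), keratins (16), fin fold and collagens (29), hatching gland (9) and lens genes other than crystallins (2) held none. Beyond the members, the glycolytic list had a median ratio of 0.86 in wild type and 0.19 in morphants, with 6 of 19 genes at least 2-fold lower in association (2.38% of all genes) and none higher. Of the 36 neuronal genes, 9 were at least 2-fold lower, the members TUBA1A and tuba1c among them, and 1 higher, and the median was -0.25. The proteasome list had medians of 0.54 and 0.69, with no gene 2-fold different in association.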

How the data were processed

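Per the file headers, the deposited values are RPKM, read counts scaled to gene model length and to mapped reads, which the authors made separately for all 4 samples. Zv9 is the build in the submitters' processing notes; for aligner, counter and annotation the sources used here give no name. Symbols were joined by Ensembl identifier for 20499 of 32313 genes. The members, lists and comparisons were chosen with earlier results of these data known, and roles were assigned after values were seen. Named genes are the members with a symbol that lie at the ends of each ratio, those next to the threshold, those on the 21 lists, and further members described by role. One gene that this rule names is not reported here.

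Low values move in equal steps, as whole reads plus 1 would. The steps gave each library's depth, and the smallest length that made all 4 values whole gave reads and gene model length for 10498 of 11054 genes (95.0%). Where the true length and all 4 counts share a factor, the length and the reads so recovered are too small. How many genes this affects was not tested. Of 1000 genes whose values were shifted at random by up to 1%, 1 was given a length. Intervals are 95% normal intervals on the log scale from reads. They cover counting error only, and the polysomal libraries may vary more. Ratios are log2 after adding 0.5 RPKM, which understates differences of low genes. Where reads were recovered, members had at least 101 (wild type) and 69 (morphant) on polysomes, and at least 30 and 18 in the total libraries. No test was possible with 1 library per group. The recovery of depths and lengths and the threshold of the rule were tried on simulated reads. Those reads varied by counting error only, so the trial does not cover further variation between polysomal libraries. Alternatives were other scalings, pseudocounts, floors, thresholds and symbol filters. Software was SciPy 1.17.1, Matplotlib 3.10.9, pandas 2.3.3 and NumPy 2.4.6 under Python 3.11.15.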

Additional observations from a re-analysis of the deposited data

Results flagged for a closer look

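The TYRP1 feature ENSDARG00000029204 was the only member whose ratio of polysomal to total mRNA pointed in opposite directions in the 2 conditions, at a log2 ratio of 2.19 in wild type and -0.23 in morphants. The zero of this ratio depends on how the libraries are scaled. In morphants the median over all genes was -0.72, and -0.23 under upper-quartile scaling, and this feature ranked 3731 of all genes. With 1 library per group, the difference between the 2 conditions was not tested.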

How the results depend on the processing

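No paired analysis was possible because each group holds 1 library. No median changed sign under any of the 12 alternatives, and 52 of 108 recomputed values stayed within 1.5 times the count or within the interval of the median. Every alternative again chose genes by a high wild-type ratio, so the sign of the median association is in part fixed by the choice. The number of members depends on scaling and on the settings of the rule. Values are given in the order members, members at least 4-fold and at least 2-fold enriched in morphants, and members at least 2-fold lower in association, in polysomal mRNA and different in total mRNA. Upper-quartile scaling gave 309, 147, 293, 60 and 39 (total mRNA was within 1.5 times), with medians of 1.98 for the morphant ratio and -0.43 for association, and 175 genes by the same rule on the morphant libraries. Totals without the 50 most abundant genes gave 34, 6, 29, 13, 6 and 3, and 34 genes on the morphant libraries. Median-of-ratios scaling gave 155 members, of which 43 were at least 4-fold enriched in morphants. The median wild-type ratio of all genes moved from -0.76 to -0.30, -1.18 and -0.62 under these 3 scalings, and the median association of all genes by at most 0.17.

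A floor of 12 RPKM gave 69 members, 12 at least 4-fold enriched, 17 lower in association and 13 lower in polysomal mRNA, with a median association of -0.56. No floor gave 208 members, 143 at least 2-fold enriched, 110 lower in association, 76 lower in polysomal mRNA and 24 different in total mRNA, with medians of 1.39 and -1.12. A log2 threshold of 1.5 gave 351, 64, 281, 71, 48 and 11, medians of 1.46 and -0.45, and 181 genes on the morphant libraries. A threshold of 3 gave 10, 4, 9, 9, 6 and 1, medians of 1.99 and -1.57, and 4 genes on the morphant libraries. Keeping the symbols left out gave 173 members, 149 at least 2-fold enriched, 58 lower in association and 43 lower in polysomal mRNA. Leaving out genes with no symbol gave 68 members, 10 and 58 enriched at least 4-fold and 2-fold, 16 lower in polysomal mRNA, and 11 genes on the morphant libraries. Leaving out features under 200 bases, chosen after seeing the data, gave 17 genes on the morphant libraries. A pseudocount of 1, and leaving out the 7 muscle genes (chosen after seeing the data), moved none of the 9 results this far. Beyond the genes each setting admits, the cause was not tested.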
